A study of Mus musculus with 12 samples.

Results

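The genes described here are 10 genes of muscle formation and regeneration that were looked up by name in a table of 12 mouse tumors and set, tumor by tumor, against *Acta1*, the actin of mature skeletal muscle. They are the myogenic regulators *Myod1*, *Myog*, *Myf5* and *Myf6*, the fusion gene *Mymk*, the embryonic and perinatal myosins *Myh3* and *Myh8*, the acetylcholine receptor subunits *Chrna1* and *Chrng*, and *Acta1* itself. The table held 9 of the 10 among its 15687 genes, and *Myf5* (ENSMUSG00000000435, chr10) was not among them.

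Skeletal muscle forms when committed myoblasts leave the cell cycle, fuse and build contractile fibers, and regenerating muscle runs through the same program again. The basic helix-loop-helix factors MYOD1 and MYF5 commit cells to the lineage, MYOG drives differentiation, MYF6 is kept on in mature fibers, and the membrane protein encoded by *Mymk* makes myoblasts fuse. New fibers first carry embryonic and perinatal myosin heavy chains (*Myh3*, *Myh8*) and the fetal γ subunit of the acetylcholine receptor (*Chrng*), and replace them as they mature and become innervated, whereas *Acta1* stays high in adult fibers.

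The tumors grew from mTc11 cells (written mTC11 by the study), a mouse lung cancer line, that had received a control shRNA (CTL tumors, genotype label WT, n = 6) or a *Filip1l* shRNA (*Filip1l*-knockdown tumors, called knockdown tumors from here on, label Filip1l KD, n = 6). The cells were mixed, puromycin-selected lentiviral clones, and the sources used here do not state which of the *Filip1l* targets the sequenced tumors carried. In both groups the cells were injected under the skin of 8-week-old male C57BL6/J mice in growth factor-reduced Matrigel, and the tumors were collected at day 24 and snap-frozen. Each tumor was a separate biological replicate by its label, and the RNA of a whole tumor was sequenced, so the mouse's own cells were measured together with the injected ones. In such bulk RNA, fewer cells of a type and less RNA per cell cannot be told apart.

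Each value is a normalized count, the reads on a gene divided by a size factor of that tumor. Reads on the listed genes numbered 17834745 to 32419578 per tumor, and 3 reads, taken here as the floor, were worth 2.59 to 4.48 normalized counts. *Filip1l* itself stood at 2311 ± 211 normalized counts in CTL and 1924 ± 165 in knockdown tumors (SD, n = 6; log2 fold change -0.26, limma adjusted p = 0.00998), so it was lower without passing the size required below. A gene was called when its limma adjusted p over all genes was under 0.05 and its log2 fold change was over 1 in size. By that rule 10.2% of all genes were called between the groups, 6.2% higher and 3.97% lower in knockdown tumors.

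Of the 9 genes measured, 6 were called higher in knockdown tumors, 1 was called lower and 2 were not called. Those called higher were *Myod1*, *Myog*, *Mymk*, *Myh3*, *Myh8* and *Acta1*, and the gene called lower was *Chrna1*. The median log2 fold change of the 9 genes was 2.36, against 0.01 over all genes. In *Myod1*, *Myog*, *Mymk* and *Chrng* the CTL mean lay below 9.28 normalized counts, the lowest mean of any gene in the table, so these genes were listed through their level in knockdown tumors. The counts of called genes, the median above and the p-values of these genes below are therefore a description. They are not support for a direction of the group.

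**Figure D1:**
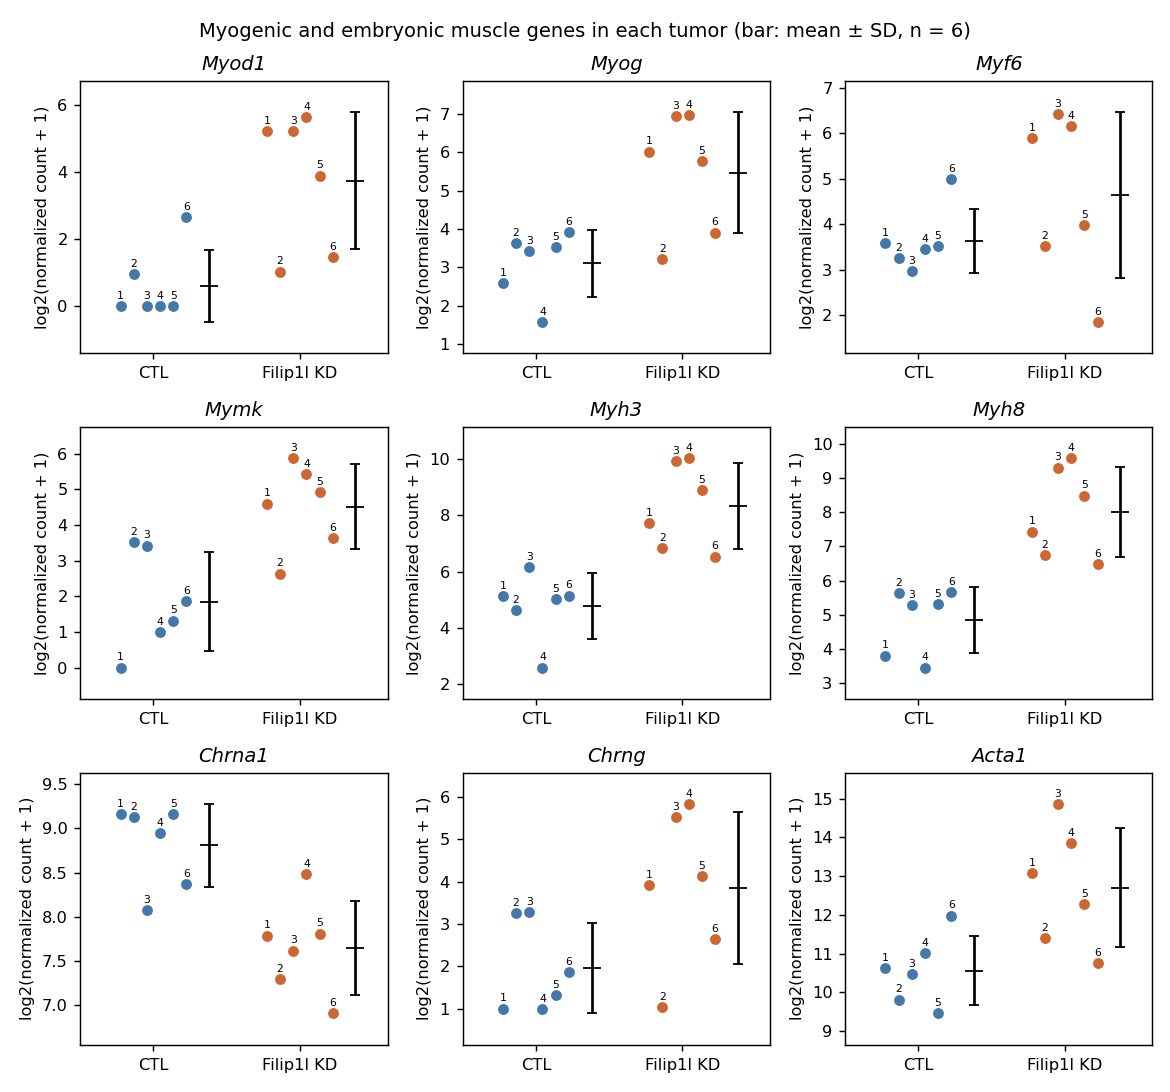
Level of each of the 9 measured genes in each of the 12 tumors, as log2(normalized count + 1), with the replicate number beside each point and the mean ± SD of the 6 tumors of a group as a black bar. knockdown tumors 3 and 4 are at the top for every gene but *Chrna1*, whose highest tumor is CTL tumor 1.

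Because MYOD1 and its relatives bind the E-box, whose letters are CANNTG, the 250 bases before the RefSeq start site of each gene were searched for it. RefSeq promoters (GRCm38.p6) were at hand for 7 of the 10 genes, not for *Myod1*, *Myf6* and *Mymk*. Those of 4 genes are shown, with every E-box in capitals: *Chrna1* and *Chrng*, subunits of the same receptor whose log2 fold changes had opposite signs, *Myog*, the differentiation factor, and *Acta1*, the reference.
Chrna1 (chr2:73580339-73580588, - strand): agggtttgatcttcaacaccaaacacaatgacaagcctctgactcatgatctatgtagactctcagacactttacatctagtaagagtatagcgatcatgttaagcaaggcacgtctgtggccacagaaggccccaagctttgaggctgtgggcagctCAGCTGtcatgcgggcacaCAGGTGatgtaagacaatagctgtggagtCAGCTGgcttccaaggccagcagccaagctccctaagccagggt
Chrng (chr1:87205561-87205810, + strand): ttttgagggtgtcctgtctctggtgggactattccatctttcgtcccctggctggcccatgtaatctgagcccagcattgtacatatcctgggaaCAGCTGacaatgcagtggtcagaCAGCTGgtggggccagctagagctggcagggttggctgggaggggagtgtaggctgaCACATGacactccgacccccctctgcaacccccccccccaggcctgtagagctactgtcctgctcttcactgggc
Myog (chr1:134289754-134290003, + strand): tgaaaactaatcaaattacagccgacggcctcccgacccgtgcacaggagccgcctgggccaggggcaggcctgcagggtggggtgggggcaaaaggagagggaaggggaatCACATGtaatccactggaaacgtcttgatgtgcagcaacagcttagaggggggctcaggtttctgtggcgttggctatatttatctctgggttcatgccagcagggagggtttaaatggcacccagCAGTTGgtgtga
Acta1 (chr8:123894776-123895025, - strand): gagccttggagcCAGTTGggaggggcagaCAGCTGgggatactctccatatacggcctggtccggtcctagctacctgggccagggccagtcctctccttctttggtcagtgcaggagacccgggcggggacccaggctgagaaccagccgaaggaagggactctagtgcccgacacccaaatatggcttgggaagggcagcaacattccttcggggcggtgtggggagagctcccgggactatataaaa

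The *Chrna1* and *Chrng* windows each held 3 E-boxes, a number reached by 12.2% of 32851 mouse promoters of the same length. In both genes 2 of the 3 had the letters CAGCTG, and 1.26% of all promoters held 2 or more such matches. The *Myog* and *Acta1* windows held 2 E-boxes each, the *Myh3* and *Myh8* windows 1 each, and the *Myf5* window 0, while 66.2% of all promoters held at least 1. A CANNTG match reads the same on both strands, CAGCTG is one form of it, and all are matches of letters only. *Acta1* alone among the 7 had a CArG box, the site of serum response factor, which 1.47% of promoters held. The MEF2 site was searched only in a strict form of 10 letters, which none of the 7 matched (0.508% of promoters). Looser forms were not searched, and the *Myog* window holds a stretch that departs from the strict form in its last letter only. The search therefore cannot tell whether these windows lack a MEF2 site. *Chrna1*, the gene that fell, and *Chrng*, with a log2 fold change of 1.89 that was not called, thus had the same number of E-boxes and of CAGCTG matches in these windows.

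*Myod1* (ENSMUSG00000009471, chr7:46376474-46379099, GRCm38) was close to absent from CTL tumors and present in most knockdown tumors. Its lowest, median and highest normalized counts were 0, 0 and 5.29 in CTL tumors and 1.04, 25.1 and 49.0 in knockdown tumors. Of the CTL tumors 5 were at or under 3 reads, and so were knockdown tumors 2 and 6, so the groups overlapped, although 4 knockdown tumors were above every CTL tumor. The log2 fold change was 3.14 (SE 0.85, limma adjusted p = 0.0089), and since the CTL level was near 0 its size depended on the pseudocount, from 1.47 with a pseudocount of 8 to 3.77 with 0.5, called in each case.

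*Myog* (ENSMUSG00000026459, chr1:134289989-134292548) encodes the factor that acts when myoblasts differentiate. CTL tumors ran from 1.99 through a median of 10.1 to 14.1 normalized counts, and knockdown tumors from 8.33 through 58.6 to 123. The increase, 2.36 on the log2 scale (SE 0.64, limma adjusted p = 0.00904), was carried by 4 knockdown tumors, and tumors 2 and 6 stayed within the CTL range. *Myf6* (ENSMUSG00000035923, chr10:107492853-107494737), the regulator of mature fibers, gave 6.80, 10.2 and 30.9 in CTL tumors and 2.62, 36.6 and 84.5 in knockdown tumors. The knockdown tumors thus included both the lowest and the highest *Myf6* values of the series, and the difference was not called (log2 fold change 1.01, SE 0.70, limma adjusted p = 0.272). Without knockdown tumor 6 the value was 1.56 and was called (limma adjusted p = 0.0415).

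*Mymk* (ENSMUSG00000009214, chr2:27061636-27072179), whose product is needed for myoblasts to fuse, went the way of *Myod1* and *Myog*. Its lowest, median and highest values were 0, 2.07 and 10.4 normalized counts in CTL tumors, 4 of them at or under 3 reads, and 5.21, 26.3 and 57.4 in knockdown tumors. Only knockdown tumor 2 fell inside the CTL range. The log2 fold change was 2.66 (SE 0.68, limma adjusted p = 0.00597), and it ranged from 1.45 with a pseudocount of 8 to 2.96 with 0.5, again called in each case.

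The embryonic myosin *Myh3* (ENSMUSG00000020908, chr11:67078300-67102291) separated the groups. It had 4.98, 32.7 and 71.0 normalized counts (lowest, median and highest) in CTL tumors and 91.7, 344 and 1051 in knockdown tumors. The means differed 14.7-fold, and the log2 fold change was 3.55 (SE 0.68, limma adjusted p = 0.000766). The perinatal myosin *Myh8* (ENSMUSG00000055775, chr11:67277124-67308634) behaved in the same way, with 9.97, 38.4 and 49.4 in CTL tumors and 88.2, 264 and 761 in knockdown tumors. Its means differed 10.7-fold, and its log2 fold change was 3.15 (SE 0.57, limma adjusted p = 0.000531). For both genes every knockdown tumor was above every CTL tumor, which gave the smallest p that the exact two-sided permutation test allows with 6 against 6 tumors, p = 0.00216. They were the 2 of 9 genes whose groups did not overlap, beside 21.5% of all genes. Myosin genes are alike in sequence: 6.61% of the 100-base windows of the *Myh8* transcript also occurred in *Myh1*, *Myh2*, *Myh4* or *Myh13*, and 1.15% of those of *Myh3* in *Myh13*, so a small share of their reads could not be assigned with certainty.

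The receptor subunits had log2 fold changes of opposite sign. *Chrna1* (ENSMUSG00000027107, chr2:73563215-73580338), the α subunit that binds acetylcholine, fell. CTL tumors ran from 269 through a median of 526 to 572 normalized counts, and knockdown tumors from 119 through 207 to 357, with 5 of 6 knockdown tumors below every CTL tumor and tumor 4 inside the CTL range. The log2 fold change was -1.16 (SE 0.25, limma adjusted p = 0.00211).

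*Chrng* (ENSMUSG00000026253, chr1:87204657-87212694), the fetal γ subunit, was near the floor in CTL tumors, with 0.997, 2.07 and 8.75 normalized counts, and had 1.04, 15.3 and 55.8 in knockdown tumors. The knockdown tumors were above all CTL tumors in 4 of 6 cases, and tumor 2 was among the lowest of the series. The log2 fold change of 1.89 was not called (95% interval 0.24 to 3.54, limma adjusted p = 0.0624). It was called when CTL tumor 2 (2.15, limma adjusted p = 0.0492), CTL tumor 3 (2.16, limma adjusted p = 0.0456) or knockdown tumor 2 (2.45, limma adjusted p = 0.00942) was left out.

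*Acta1* (ENSMUSG00000031972, chr8:123891769-123894751), the mature reference, was the most abundant of the genes in both groups. It had 699, 1491 and 4041 normalized counts (lowest, median and highest) in CTL tumors and 1724, 6778 and 29765 in knockdown tumors, where the highest tumor held 17.3 times the lowest. knockdown tumors 2 and 6 were inside the CTL range. The log2 fold change was 2.15 (SE 0.61, limma adjusted p = 0.0119).

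Per kilobase of annotated exon, which allows levels of different genes to be set side by side, the order differed between the groups. The length counts all annotated exons of a gene together, 11772 bases for *Myh8* and 4163 for *Chrng*. Their longest transcripts have 6149 and 2780 bases, so their levels per kilobase may be understated. The order below depends on this choice of length. In CTL tumors *Acta1* (1159 ± 788 normalized counts per kb, SD, n = 6) was followed by *Chrna1* (106 ± 30.4), and the other genes lay between 0.559 (*Myod1*) and 10.2 (*Myf6*). In knockdown tumors *Acta1* (6785 ± 6901) was followed by *Myh3* (80.4 ± 71.4), *Chrna1* (48.3 ± 18.6), *Myog* (42.8 ± 33.4), *Myf6* (31.8 ± 27.8) and *Myh8* (29.9 ± 24.2), each differing from its neighbor by less than the larger SD of the pair. *Mymk* (18.6 ± 12.8), *Myod1* (12.4 ± 10.9) and *Chrng* (5.50 ± 5.34) came last, again within that spread. *Acta1* was thus far above each embryonic gene in both groups.

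Set against *Acta1* in the same tumor, most of the genes no longer differed between the groups past the threshold. The log2 ratio of gene to *Acta1* was compared for 8 genes with the exact two-sided permutation test, without adjustment. At p under 0.05, 2 of the 8 ratios were lower in knockdown tumors and 0 were higher. Over all genes 81.5% of such ratios differed, 81.2% lower and 0.344% higher, with a median difference of -2.14, since *Acta1* itself was higher in knockdown tumors.

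**Figure D2:**
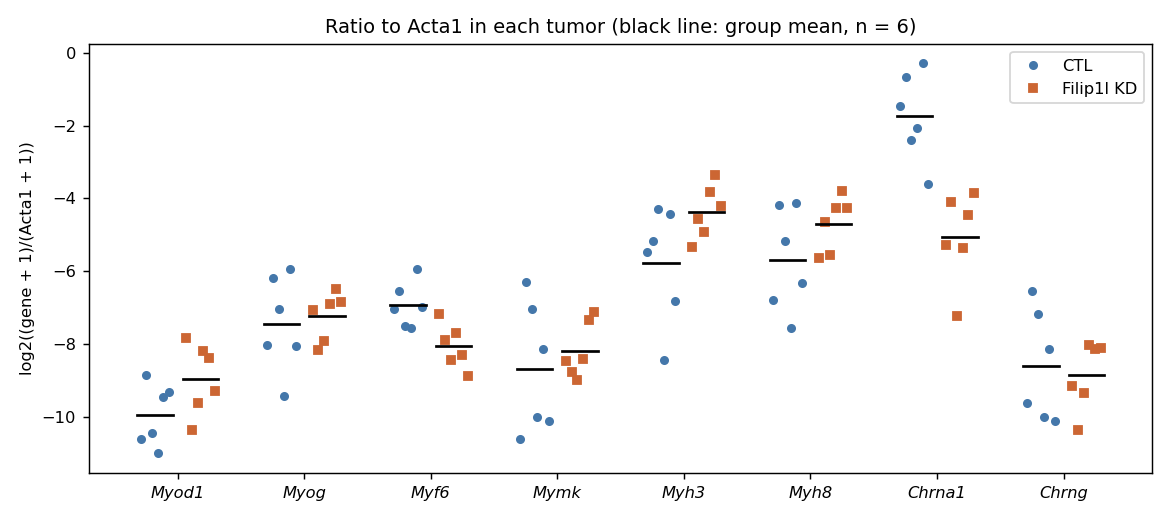
Ratio of 8 genes to *Acta1* in each tumor, as log2((normalized count + 1)/(*Acta1* + 1)), with CTL tumors as circles, knockdown tumors as squares and the mean of 6 tumors as a black line. The groups are apart for *Chrna1* only, whose mean difference is -3.30, beside a median of -2.14 over all genes.

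Among the 8 ratios, that of *Myog* differed least. Per 1000 normalized counts of *Acta1* there were 0.964, 5.19 and 14.96 of *Myog* in CTL tumors (lowest, median and highest) and 3.09, 7.75 and 10.8 in knockdown tumors. The range of knockdown tumors lay inside that of CTL tumors, with a log2 difference of 0.21 (exact permutation p = 0.732). *Myod1* had a log2 difference of 1.00 (exact permutation p = 0.0909) and *Mymk* of 0.51 (exact permutation p = 0.530), but CTL tumors with 0 reads make both depend on the pseudocount. With a pseudocount of 8 they turned to -0.67 and -0.69, and that of *Myog* to -0.39. With a pseudocount of 0.5 the *Myod1* difference was 1.62 and passed the threshold (exact permutation p = 0.0390). It also passed without knockdown tumor 2 (1.28, exact permutation p = 0.0346).

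*Myf6* was lower relative to *Acta1*, with 4.82, 7.32 and 14.96 per 1000 of *Acta1* in CTL tumors and 1.52, 3.41 and 6.80 in knockdown tumors. All 6 knockdown tumors were below the CTL median, although the ranges overlapped (log2 difference -1.14, exact permutation p = 0.00866). Over all genes the median difference was -2.14. With the muscle creatine kinase *Ckm* as the reference instead, the difference was -0.77 (exact permutation p = 0.0974).

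The embryonic and perinatal myosins had higher mean ratios in knockdown tumors, short of the threshold. *Myh3* had 2.41, 24.1 and 50.2 per 1000 of *Acta1* in CTL tumors and 24.4, 47.4 and 96.4 in knockdown tumors, and *Myh8* 4.82, 19.5 and 55.6 in CTL tumors and 19.9, 45.3 and 71.8 in knockdown tumors. The ranges overlapped for both, and the log2 differences of 1.40 for *Myh3* (exact permutation p = 0.0671) and 1.00 for *Myh8* (exact permutation p = 0.160) did not pass. For *Myh3* the call depended on the reference and on single tumors: with *Ckm* the difference was 1.77 (exact permutation p = 0.0368), with the mean of 30 mature muscle genes 1.54 (exact permutation p = 0.0281), and p fell under 0.05 without CTL tumor 3 (1.70), CTL tumor 5 (1.67) or knockdown tumor 1 (1.599). The lowest value was that of CTL tumor 4, and without it the difference was 0.87.

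Measured as a share of 6 myosin heavy chain messages per kilobase (*Myh3* and *Myh8* over these and the adult *Myh1*, *Myh2*, *Myh4* and *Myh7*), the embryonic and perinatal forms made up 0.451%, 3.52% and 6.22% in CTL tumors (lowest, median and highest) and 3.24%, 5.25% and 9.06% in knockdown tumors. The adult isoforms were therefore the larger part in every tumor, and the groups overlapped. As shares of normalized counts, not divided by length, the embryonic and perinatal forms had medians of 4.41% in CTL and 6.28% in knockdown tumors. These shares were chosen after the values were seen and were not tested.

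Of the receptor genes, *Chrna1* was lower relative to *Acta1* and *Chrng* did not pass. *Chrna1* had 81.4, 301 and 816 per 1000 of *Acta1* in CTL tumors and 6.55, 35.3 and 68.9 in knockdown tumors. The groups did not overlap, and the log2 difference of -3.30 gave the smallest p possible (exact permutation p = 0.00216). Over all genes 81.2% of ratios were lower at p under 0.05, with a median difference of -2.14. How many of those ratios did not overlap is not given here. For *Chrng* the log2 difference was -0.26 (exact permutation p = 0.736), and its sign turned when CTL tumor 2 (0.15), CTL tumor 3 (0.03) or knockdown tumor 2 (0.05) was left out.

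A fit of the same comparison with *Acta1* as a covariate, in which 10.1% of all genes were called (5.33% higher, 4.72% lower), called 3 of the 8 genes. *Myh3* (2.24, limma adjusted p = 0.0457) and *Myh8* (2.05, limma adjusted p = 0.0331) were still called higher and *Chrna1* (-1.38, limma adjusted p = 0.00781) still lower. *Myod1* (0.85, limma adjusted p = 0.441), *Myog* (0.94, limma adjusted p = 0.343) and *Mymk* (1.75, limma adjusted p = 0.153) were no longer called. The value of *Myf6* turned to -1.10 (95% interval -2.17 to -0.03, limma adjusted p = 0.111) and that of *Chrng* was 0.43, both not called. Of the 31 mature muscle genes, 27 were called in the comparison without *Acta1* and 3 of the other 30 with it.

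**Figure D3:**
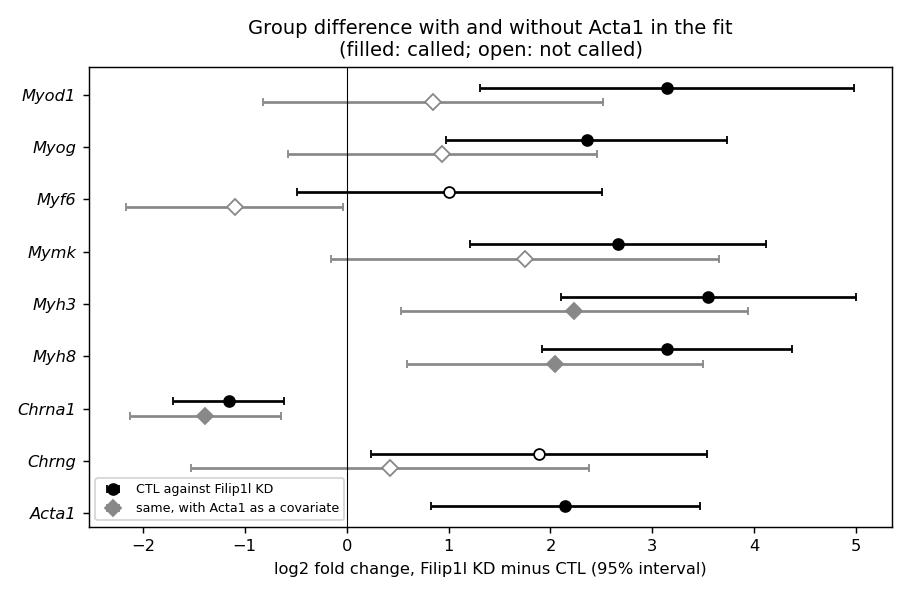
Log2 fold change (knockdown minus CTL tumors) of each gene with its 95% interval, from the fit on group alone (black circles) and from the fit with *Acta1* as a covariate (grey diamonds), where filled symbols are called. *Myh3*, *Myh8* and *Chrna1* are called in both fits, and the diamonds of *Myod1*, *Myog* and *Mymk* are open.

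Among knockdown tumors the genes followed *Acta1* from tumor to tumor. Pearson's r with *Acta1* on the log scale was positive for all 8 genes and had an exact permutation p under 0.05 for 7 of them, beside 3.76% of all genes with a positive r at that level. The highest was *Myf6* (r = 0.95, rho = 1, exact permutation p = 0.00278 for both, the smallest that 6 tumors allow) and the lowest of the 7 was *Chrng* (r = 0.86, exact permutation p = 0.0361; rho = 0.83, exact permutation p = 0.0583). *Chrna1* had r = 0.68 (exact permutation p = 0.133; rho = 0.60, exact permutation p = 0.242). For the 8 genes r was between 0.78 and 0.95 after the 2 tumors farthest from the median of *Acta1* were left out.

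Among CTL tumors no such relation was detected. Of the 8 genes 2 had a positive r and 0 had an exact permutation p under 0.05 (background 1.72%), with r from -0.53 (*Chrna1*, exact permutation p = 0.311; rho = -0.37) to 0.73 (*Myf6*, exact permutation p = 0.172; rho = 0.49). The mature muscle genes did follow *Acta1* in CTL tumors: 19 of 30 had a positive r at p under 0.05 there, and 25 of 30 in knockdown tumors. In all 16 correlations were computed for the 8 genes, p-values were not adjusted, and the difference between the groups was not tested. *Acta1* varied 5.78-fold among CTL tumors against 17.3-fold among knockdown tumors, and several genes were near the floor in CTL tumors. With any 1 knockdown tumor left out, 5 tumors remained in that group and 1 to 3 of the 8 genes had p under 0.05.

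**Figure D4:**
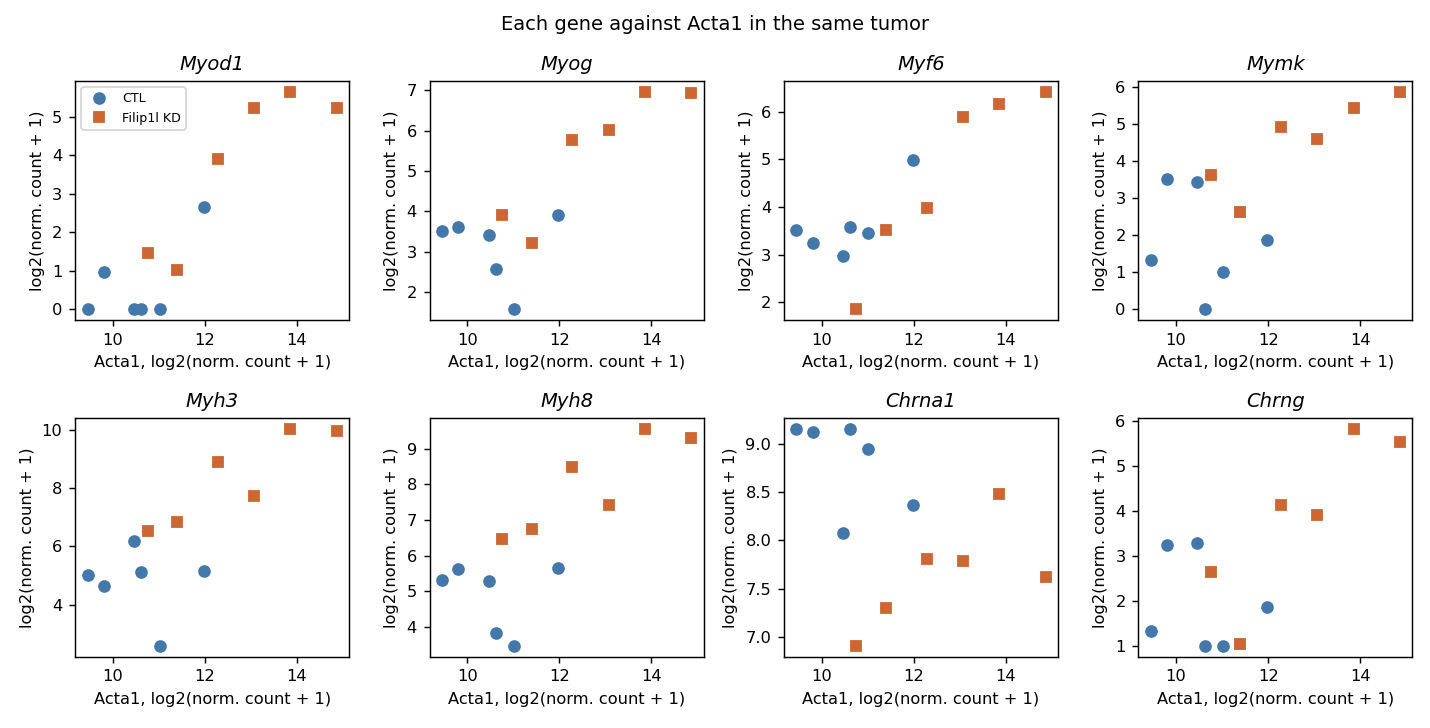
Each of 8 genes (vertical axis) against *Acta1* (horizontal axis) in the same tumor, both as log2(normalized count + 1), with CTL tumors as circles and knockdown tumors as squares. The squares of the regulators, *Mymk* and the myosins climb with *Acta1*, the circles have r from -0.53 to 0.73, none with p under 0.05, and the *Chrna1* squares lie below most circles.

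The genes also differed in which other genes they resembled. After the group means were removed, r between pairs of the genes without *Chrna1* ranged from 0.38 to 0.92 (28 pairs, median 0.75), and r of *Chrna1* with the others from 0.08 to 0.50 (8 pairs, median 0.33). Among the 12870 genes that averaged 50 normalized counts or more, the 5 most like *Acta1* over the 12 tumors were the fast-fiber genes *Tnni2*, *Tnnc2*, *Myl1*, *Tnnt3* and *Mylpf*, with r of 0.98 to 0.99. The slow-fiber troponin *Tnni1* was among the 5 closest to *Myh3* (r = 0.91) and to *Myh8* (r = 0.90), and the other 4 of each were not genes of the muscle lists used here: *Tmem181b-ps* (r = 0.94), *Rhbdf1*, *Tyw3* and *Clk4* for *Myh3*, and *Zscan20*, *Zfp12*, *Trim32* and *Zbtb39* for *Myh8*. Those closest to *Chrna1* were *Lgr6* (r = 0.98), *Nav2*, *Abtb2*, *Kif3c* and *Zbtb4*, all 5 outside these lists, and *Lgr6* was called lower as well (log2 fold change -1.41, limma adjusted p = 0.00135). The same libraries lie behind all these values. Each set of 5 is the top of 12870 genes over 12 tumors, and how high r runs by chance in such a search was not tested.

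The other subunits of the muscle acetylcholine receptor had log2 fold changes of opposite sign as well. *Chrnb1*, the β subunit, had 716 to 967 normalized counts in CTL tumors and 410 to 639 in knockdown tumors, without overlap, but its log2 fold change of -0.63 (limma adjusted p = 0.00109) was below the size required for a call. *Chrnd*, the δ subunit, named here after its values were seen, had 0 to 6.80 in CTL tumors and 2.08 to 70.5 in knockdown tumors and was called higher (2.66, limma adjusted p = 0.00851). All its CTL values lay below 9.28 normalized counts, the lowest mean of any gene in the table. It was thus listed through its level in knockdown tumors, and its call, p-value and place in the endplate list below are a description. Per kilobase, α and β stood at 106 and 324 in CTL tumors and γ and δ at 0.937 and 0.959. In knockdown tumors α and β stood at 48.3 and 212, and γ and δ at 5.50 and 8.70. As a share of the 4 subunits per kilobase, γ and δ together came to between 0.132% and 0.938% in CTL tumors and between 0.445% and 9.46% in knockdown tumors. The share overlapped between the groups and was not tested.

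Of the 12 endplate and receptor genes listed, 10 were in the table, 3 of them called higher and 1 lower, with a median log2 fold change of -0.09. *Chrne*, the adult ε subunit, and *Musk*, the endplate kinase, were not in the table. Called higher beside *Chrnd* were *Ache* (3.56, limma adjusted p = 1.12e-06), the enzyme that breaks down acetylcholine, at 30.7 ± 11.4 normalized counts in CTL and 367 ± 118 in knockdown tumors (SD, n = 6), and *Rapsn* (1.09, limma adjusted p = 0.0263), which anchors the receptor. *Rapsn* was no longer called with a pseudocount of 8 or without CTL tumor 5, knockdown tumor 1 or knockdown tumor 3, where its log2 fold change was between 0.78 and 0.95 with a limma adjusted p of up to 0.0634, nor were *Rapsn* and *Chrnd* with *Acta1* as a covariate. *Ache* was still called with the covariate (3.84). It was highest in knockdown tumor 6 (526 normalized counts), the knockdown tumor lowest in *Acta1*, and had 345 in knockdown tumor 3, the highest in *Acta1*. The denervation list, whose genes rise in fibers that have lost their nerve, had 11 of 12 genes in the table, with 2 called higher (*Myog*, and *Sln* at 1.94), *Chrna1* among those called lower and a median of -0.20.

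Most other regulators of the lineage were not called. Of 14 myogenic transcription factors and cofactors 11 were in the table. *Myod1* and *Myog* were called higher, *Eya1* (-1.70, at 33.8 against 9.76 normalized counts) lower, and 8 were not called, with a median log2 fold change of 0.38. Among these, *Eya2* had 0.40, *Mef2c* 0.38 and *Mef2a* -0.28. *Pax7* and *Pax3*, the defining factors of muscle stem cells, were not in the table. Of 13 satellite cell genes 9 were, and 2 were called higher, *Itga7* (1.54) and *Fgfr4* (1.38), with a median of -0.04. *Spry1* had -0.95.

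The E-box proteins that pair with MYOD1, and the factors that block it, were called lower or not called. Of 10 such genes 0 were called higher and 4 lower, with a median of -0.18: *Id3*, an inhibitor without a DNA-binding domain (-1.32), *Bhlhe41* (-1.50), the partner *Tcf4* (-1.28) and the repressor *Twist1* (-1.07). All 4 were abundant in CTL tumors, at 410 to 1778 normalized counts, far above *Myod1*, and none of them overlapped between the groups. *Bhlhe40* went the other way, also without overlap, at 7263 normalized counts in CTL and 10408 in knockdown tumors. Its log2 fold change of 0.52 (limma adjusted p = 0.000331) was below the size required for a call. *Twist1* was not called without knockdown tumor 4 or 6, where its log2 fold change came to between -0.96 and -0.88. Of the 14 genes of myoblast adhesion and fusion 11 were in the table, 2 of them called higher (*Mymk*, and *Cav3* at 1.71) and 0 lower, with a median of -0.18 (*Jam3* -0.56). Of the 7 developmental sarcomere genes 4 were called higher, *Myh3*, *Myh8*, the embryonic light chain *Myl4* (2.16) and *Mybph* (1.99), and 0 lower. Their median was 1.99, with *Tnnt2* (0.21) and *Myl6b* (0.45) not called. The *Mybph* call was lost without CTL tumor 4, CTL tumor 5, knockdown tumor 3 or knockdown tumor 5 (limma adjusted p up to 0.0567), and 2 of the 4 genes, *Myh3* and *Myh8*, were called with *Acta1* as a covariate.

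Mature muscle genes were higher in knockdown tumors, as *Acta1* was. Of 31 listed, 27 were called higher and 0 lower, with a median log2 fold change of 1.97, from 0.64 in *Eno3*, which was not called, to 3.16 in *Myh2* and 3.19 in *Myl2*, whose call was lost without CTL tumor 5 or 6 or knockdown tumor 5 or 6. With 1 tumor left out 21 to 28 of the list were called. Their summed level was 5776 to 21024 normalized counts in CTL tumors and 14886 to 147672 in knockdown tumors. Among knockdown tumors 25 of 30 had a positive r with *Acta1* at p under 0.05, but not all peaked with it in tumor 3. *Myl2* was highest in knockdown tumor 6 (751 normalized counts) and *Myh7* in knockdown tumor 5 (2448). From the cardiac list below, *Myh6* and *Tnni3* were also highest in knockdown tumors 5 and 6 and *Nppa* in knockdown tumor 6, whereas *Myl7* was highest in knockdown tumor 2. Among knockdown tumors most of the mature list thus followed *Acta1*, as 7 of the 8 genes set against it did. Among CTL tumors 19 of the 30 mature genes and 0 of the 8 did so at p under 0.05. The part of the mature list in the levels of the embryonic genes was not tested beyond the ratios and the covariate fit above.

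**Figure D5:**
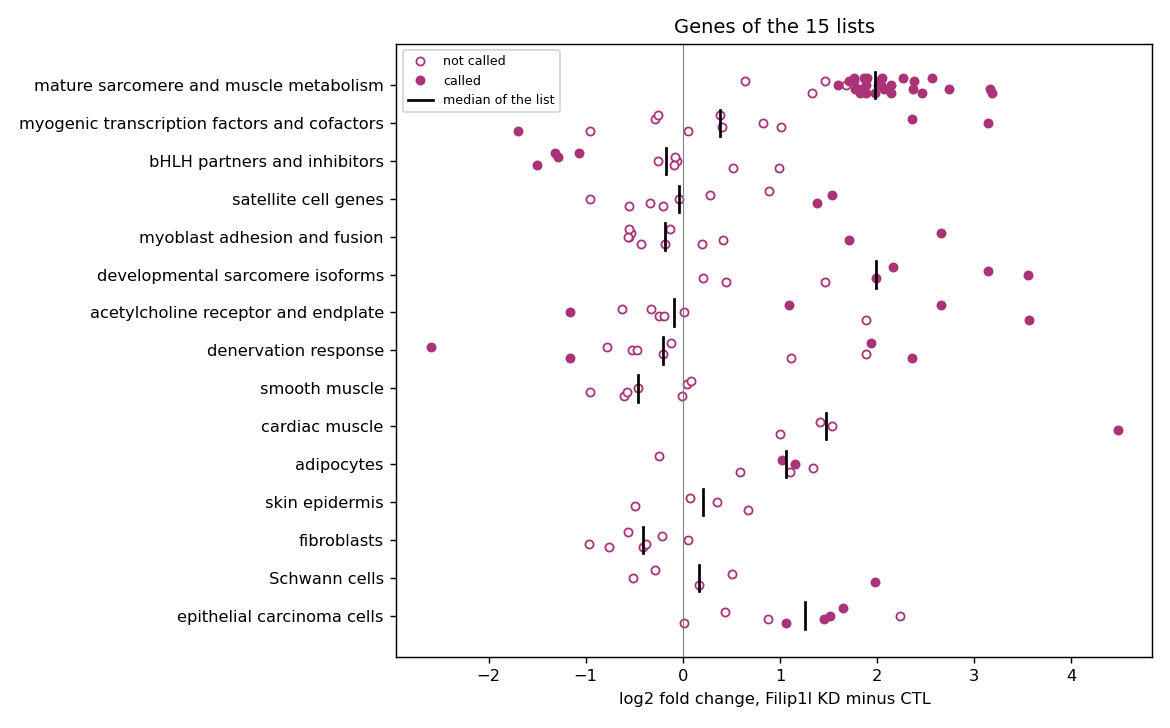
Log2 fold change (knockdown minus CTL tumors) of each listed gene in 15 lists, filled where called and open where not, with the median of each list as a black bar. The medians of the mature and developmental sarcomere lists lie near 2, and those of the satellite, fusion, endplate and denervation lists near 0.

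Markers of other tissues near the injection site were read in the same fit. The smooth muscle list had 0 of 7 genes called (median -0.46, *Actg2* -0.96, *Acta2* -0.61), the fibroblast list 0 of 7 (median -0.41, *Col1a1* -0.76, *Col1a2* -0.97) and the skin epidermis list 0 of 4 (median 0.21, *Krt14* 0.35, *Ivl* 0.67). The adipocyte list had 2 of 6 called higher (*Cidec* 1.15 and *Fabp4* 1.02, median 1.06) and the list of epithelial carcinoma genes 4 of 8 (*Epcam* 1.51, *Krt8* 1.06, *Krt19* 1.65 and *Cldn4* 1.45, median 1.26). With 1 tumor left out, 0 to 1 of the smooth muscle genes (*Actg2*), 0 to 2 of the fibroblast genes (2 without knockdown tumor 1, *Col1a2* among them) and 1 to 3 of the adipocyte genes were called. The *Fabp4* call was lost without CTL tumor 2, 5 or 6 or knockdown tumor 1 or 3 (log2 fold change down to 0.90), and *Col1a2* was called lower without CTL tumor 4 or 5 or knockdown tumor 1 or 3 (down to -1.19). The Schwann cell list had a median of 0.16 (*Pmp22* 0.51, not called). Of the 7 cardiac genes 4 were in the table. The atrial light chain *Myl7* was called higher (4.48), with 0.997 to 10.5 normalized counts in the CTL group and 74.6 to 210 in the knockdown group. Its CTL mean of 5.34 lay below 9.28 normalized counts, the lowest mean of any gene in the table, so its call is a description. *Myh6* (1.00), *Nppa* (1.53) and *Tnni3* (1.41) were not called. *Myh6* was highest in knockdown tumors 5 and 6, at 999 and 879 normalized counts, and *Nppa* in knockdown tumor 6 and CTL tumor 4, at 361 and 240, which were not the tumors highest in the embryonic genes. The part of these tissues in the levels of the muscle genes was not tested.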

How the data were processed

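RNA of 12 subcutaneous tumors was measured by poly(A)-selected sequencing. Per the submitters' processing notes, reads were handled with bcl2fastq 2.20, Trimmomatic 0.36, STAR 2.5.2b on mm10, and featureCounts of Subread 1.5.2. The values deposited by the authors are counts divided by DESeq2 size factors, a normalized signal that is comparable between tumors for a gene and not corrected for length. Strand use in counting is not given in the sources used here, and no other annotated exon overlapped the genes described.

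Values were analysed as log2(normalized count + 1) with limma 3.58.1 in R 4.3.3 (variance trend, Benjamini-Hochberg over 15687 genes). A filter at a mean of 5 removed 0 genes. For depth and floors, reads were taken as multiples of the smallest value above 0 of each tumor, and 100% of values were whole multiples of it. No count test was run on these recovered reads. In 3 tumors that step was too close to 1 to tell reads from scaled values, which are nearly equal there. Ratios, group correlations and exact two-sided tests used scipy 1.17.1 in Python 3.11.15, and figures matplotlib 3.10.9. Positions and exon lengths came from GENCODE vM21 (GRCm38), in which 99.8% of the identifiers were found, and promoters from RefSeq (GRCm38.p6). The steps were tested on simulated data.

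The members and the 15 gene lists were chosen with earlier results of these data known. Named genes are the members, up to 2 genes with the largest and 2 with the smallest log2 fold change of a list at a mean of at least 50 normalized counts (most of those near 0 are not printed), and the 5 genes most like each member of that level. *Eya1*, *Tcf4*, *Twist1*, *Cav3*, *Myl4*, *Mybph*, *Chrnd*, *Rapsn*, *Cidec*, *Krt8*, *Cldn4* and the adult myosins were named after their values were seen. The alternatives tried were a pseudocount of 0.5 or 8, leaving the filter out or raising it to a mean of 20, scaling to the 75th percentile or the total, limma without a trend, a replicate block, other references, *Acta1* as a covariate, and leaving out each tumor. The reads hold no molecular identifiers, and floors therefore cover counting error alone. Results for a few single genes of the lists are not reported here.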

Additional observations from a re-analysis of the deposited data

Results flagged for a closer look

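In 2 of 34 sets of 6 values, 1 tumor stood apart from the other 5 by Dixon's test, where chance alone gives about 1 in 20. Both concern CTL tumor 6. *Myod1* was at 5.29 normalized counts there, and the next CTL tumor had 0.947. *Myf6* was at 30.9 there, against a median of 10.2 in the CTL group. The same tumor had the highest *Acta1* of the CTL group, 4041 normalized counts. Without it the log2 fold changes of *Myod1* and *Myf6* kept their direction and their call.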

How the results depend on the processing

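The number of genes called was 1596 and stayed between 1352 and 1712 under all alternatives, and 7 of the 9 genes described were called in each alternative but the following. With *Acta1* as a covariate 3 were called, and 24 instead of 56 of the listed genes. A filter at a mean of 20 left 5 called and took *Myod1*, *Mymk* and *Chrng* out of the test. When 1 tumor was left out 7 to 8 were called. The covariate also turned *Myf6* to -1.10 and *Mef2c* to -0.42. For the ratios to *Acta1*, a pseudocount of 8 turned *Myod1* to -0.67, *Myog* to -0.39 and *Mymk* to -0.69, *Ckm* as the reference turned *Chrng* to 0.11, and leaving out 1 tumor moved *Myog* between -0.19 and 0.51 and *Chrng* between -0.56 and 0.15, the sign of *Chrng* turning without CTL tumor 2 (0.15), CTL tumor 3 (0.03) or *Filip1l*-knockdown tumor 2 (0.05), and that of *Myog* without CTL tumor 4 (-0.19). The number of ratios at p under 0.05 was 2 or 3 throughout. The *Myod1* ratio was among them with a pseudocount of 0.5 (1.62) and without *Filip1l*-knockdown tumor 2 (1.28). The number of correlations with *Acta1* at p under 0.05 was 7, 6 with *Ckm* as the reference, and 1 to 8 with 1 tumor left out, where the smallest p that 5 tumors allow is 0.0167.

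The replicate numbers are shared by the groups but did not pair the tumors: same-numbered tumors correlated at -0.28 to 0.08 after the group means were removed, and 0 of 12 tumors correlated best with its own number. With the number as a replicate block 1554 genes, 55 of the listed genes, 7 of the 9 genes described and 2 of the 8 ratios were called, and the calls of *Mybph* and *Myl2* were lost. Depth limits *Myod1*, *Mymk* and *Chrng* most, where 4 or 5 CTL tumors were at or under 3 reads.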
